A study of Mus musculus with 6 samples.

Results

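Immediate early genes are switched on within minutes of synaptic or other cellular stimulation, without new protein synthesis, and their transcripts are short-lived. Calcium entry and kinase cascades act on factors that are already bound, CREB at cyclic AMP response elements and SRF at CArG boxes, and most of the products are transcription factors that start a later wave of genes. In the brain they are read as a record of recent neuronal activity, and in the cerebellum they are induced mainly in granule neurons and, less readily, in Purkinje cells and interneurons.

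The 10 genes described here were chosen by name: Fos, Fosb, Junb, Egr1, Egr2, Egr3, Nr4a1, Nr4a2, Arc and Npas4. They were found in a table of 48709 Ensembl genes by their GENCODE M21 symbol, each matched to a single row, and 8 of the 10 had enough reads to be tested. The table holds RNA sequencing read counts from cerebella of C57BL/6J mice at 40 weeks, 3 wild-type libraries and 3 from mice heterozygous for an SCA7 knock-in allele of Atxn7, in which the long repeat encodes 140 glutamines and the short one 5 glutamines. SCA7, spinocerebellar ataxia type 7, is a neurodegenerative disease caused by an expanded glutamine repeat in ataxin-7, and the knock-in places the repeat in the mouse's own gene, so that it is expressed wherever Atxn7 is. The labels do not say whether each library came from a separate mouse, nor when or after what handling the tissue was taken, so the p-values describe variation among these 6 libraries only, and part of that may be technical.

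The libraries held between 34630391 and 49127673 counts. Levels are given as CPM, each count scaled by edgeR to its library's TMM-adjusted size. Defining cerebellar markers were abundant in all 6 libraries: the granule neuron receptor gene Gabra6 had between 705.5 and 912.7 CPM and the Purkinje cell gene Pcp2 between 338.4 and 491.1 CPM. Pcp2 was among the least changed of its list. Of 10 Purkinje cell markers 5 were called lower in knock-in by edgeR (median log2 fold change -0.47, Rgs8 at -1.01), as were 4 of 10 Bergmann glia and astrocyte markers (median -0.32) and 1 of 10 granule neuron markers (median -0.16). Atxn7 itself could not check the labels, because both of its alleles are counted in a single row. Single libraries stood apart in other ways. The mean log2 CPM of 8 brainstem markers was -0.51, 0.62 and -1.12 in wild-type replicates 1, 2 and 3 and 2.83, 0.79 and 2.19 in knock-in replicates 1, 2 and 3. The mean of 10 choroid plexus markers was between 2.99 and 5.18 in 5 libraries and 0.74 in knock-in replicate 2. Relative to the mean of all libraries, wild-type replicate 1 was low in GC-rich genes, with a Spearman rho across genes of -0.54 between level and GC content, against -0.00064 to 0.31 in the others. Knock-in replicate 3 was low in long genes, with a rho of -0.43 between level and exon length, against -0.084 to 0.28 in the others. In bulk tissue, fewer cells of a type and less RNA per cell cannot be told apart.

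The sequences just upstream of the genes are shown first. RefSeq windows were at hand for 7 of the 10 members (Fos, Fosb, Junb, Egr2, Nr4a1, Nr4a2 and Npas4). The 5 windows of Egr2 are not printed. Whether shared motifs play a part in the courses of the genes across the libraries was not tested. Each window is the 250 bases before a RefSeq transcription start on GRCm38.p6, the same assembly as mm10, and letters that GENCODE M21 annotates as exon are left off. Capitals mark the core of the CRE, TGACG, the EGR site GCGNGGGCG and the TATA box TATAAA, each searched on both strands, so that some appear as their reverse complement. The whole CRE contains the core, and neighbouring matches can join into a longer run of capitals. The Fos window is chr12:85473640-85473889 on the plus strand, and those of Nr4a1 and Nr4a2 are chr15:101266596-101266845 on the plus strand and chr2:57124004-57124253 on the minus strand. The Fosb stretch is chr7:19310052-19310295 and that of Junb chr8:84978749-84978998, both on the minus strand. The RefSeq start used for Nr4a1 lies inside the GENCODE gene, downstream of its first base.
Fos: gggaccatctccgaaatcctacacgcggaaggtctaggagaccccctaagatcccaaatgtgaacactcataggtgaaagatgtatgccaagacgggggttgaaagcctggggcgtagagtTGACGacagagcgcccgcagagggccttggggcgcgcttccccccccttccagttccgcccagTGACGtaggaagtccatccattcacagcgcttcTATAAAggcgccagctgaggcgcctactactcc
Fosb: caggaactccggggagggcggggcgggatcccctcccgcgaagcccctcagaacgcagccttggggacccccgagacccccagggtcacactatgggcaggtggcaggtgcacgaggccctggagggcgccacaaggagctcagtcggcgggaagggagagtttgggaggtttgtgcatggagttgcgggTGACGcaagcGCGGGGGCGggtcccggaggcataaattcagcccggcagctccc
Nr4a1: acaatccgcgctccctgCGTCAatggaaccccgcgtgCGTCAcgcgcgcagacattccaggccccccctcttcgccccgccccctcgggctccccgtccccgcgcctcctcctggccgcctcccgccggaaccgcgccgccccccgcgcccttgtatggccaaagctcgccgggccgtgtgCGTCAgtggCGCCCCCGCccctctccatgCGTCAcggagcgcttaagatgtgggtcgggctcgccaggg
Nr4a2: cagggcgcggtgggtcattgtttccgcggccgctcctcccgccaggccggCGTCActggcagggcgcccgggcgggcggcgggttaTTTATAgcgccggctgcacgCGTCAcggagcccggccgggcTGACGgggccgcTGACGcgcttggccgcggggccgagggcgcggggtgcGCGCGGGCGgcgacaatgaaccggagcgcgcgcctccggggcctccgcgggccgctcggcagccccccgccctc
Junb: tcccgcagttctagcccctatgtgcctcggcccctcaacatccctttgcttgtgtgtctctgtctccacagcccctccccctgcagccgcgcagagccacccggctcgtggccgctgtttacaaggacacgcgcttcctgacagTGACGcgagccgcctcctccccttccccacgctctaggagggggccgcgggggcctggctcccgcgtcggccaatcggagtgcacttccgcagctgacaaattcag

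The Fos stretch holds TGACG at -129 and -66 from the start and the TATA box at -33. The Nr4a1 and Nr4a2 windows hold 4 CRE cores each and an EGR site each, at -60 and -74, and Nr4a2 also a TATA box on the other strand at -164. The Fosb window holds a CRE core at -60 and an EGR site at -50. Junb has 1 CRE core, at -106, and neither of the other motifs. The Npas4 window holds 2 CRE cores, and its letters are not printed because GENCODE annotates them as exon. In all, 9 of the 11 windows of the 7 genes held TGACG, against 5836 of 32851 windows of all genes (17.8%). The EGR site was in 3 of the 11 against 4.70% of all, and TATAAA in 2 against 12.4%. The 11 windows are not independent, since 5 belong to Egr2 and several of those overlap. They were also richer in GC, with a median of 66.4% against 52.4% over all windows, and TGACG contains a CpG. A CArG box was found only in Egr2 windows (4 of 5, and 1.47% of all windows). The whole CRE TGACGTCA, the AP-1 site TGANTCA and the NR4A site AAAGGTCA were in none of the 11. Such matches describe letters in this window and say nothing of binding.

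**Figure D1:**
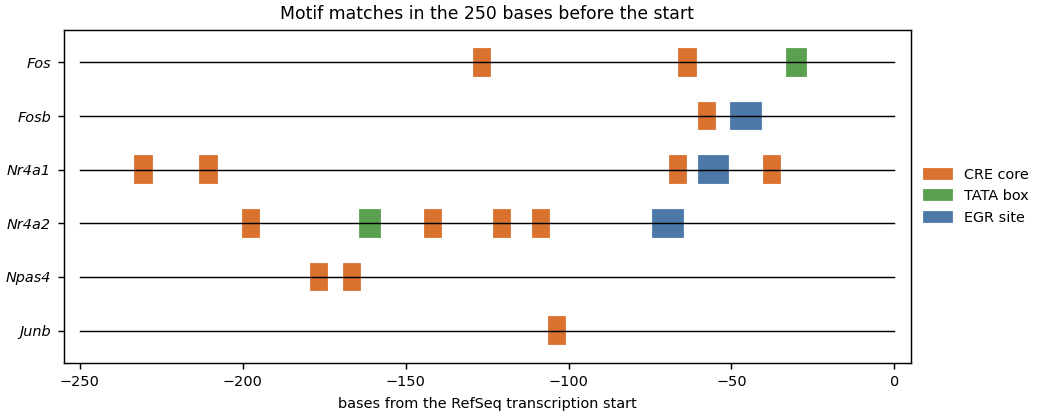
Motif matches in the 250 bases before the RefSeq start of 6 immediate early genes, with distance from the start in bases on the horizontal axis. Boxes are matches to the CRE core, the EGR site and the TATA box on either strand; Nr4a1 and Nr4a2 carry 4 CRE cores each.

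Fos (ENSMUSG00000021250, chromosome 12, 85473890 to 85477273, plus strand, mm10) encodes c-Fos, which pairs with Jun proteins to form the AP-1 transcription factor. Its level was 8.63, 16.2 and 3.44 CPM over wild-type replicates 1, 2 and 3, against 6.96, 37.3 and 4.71 CPM over knock-in replicates 1, 2 and 3; every later list of levels keeps that order. Knock-in replicate 2 alone was high, at 2.31 times the next library, which was wild-type replicate 2, and the other 2 knock-in libraries lay inside the wild-type range. The group means were 9.41 ± 6.41 and 16.3 ± 18.2 CPM (SD, n = 3 each). The log2 fold change was 0.80 ± 0.70 (SE), with an adjusted p = 0.59 from edgeR's quasi-likelihood test (Benjamini-Hochberg). Its 95% interval runs from a 0.591-fold to a 5.10-fold level in knock-in, so these libraries neither show a change in Fos nor limit it to a small one. Without knock-in replicate 2 the log2 fold change was -0.70, the opposite sign.

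Fosb (ENSMUSG00000003545, chromosome 7, 19302696 to 19310051, minus strand), the closest relative of Fos, encodes a protein that forms AP-1 with the same partners and also comes as a long-lived truncated form, deltaFosB, which counts per gene do not resolve. Its levels were low, at 0.492, 0.883 and 0.749 CPM over the wild-type libraries, against 0.677, 1.61 and 0.557 CPM over the knock-in ones. Knock-in replicate 2 was again the highest, at 64 reads against 20 to 37 elsewhere. The log2 fold change was 0.44 ± 0.41 (edgeR, adjusted p = 0.61), and -0.19 without that library.

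Junb (ENSMUSG00000052837, chromosome 8, 84974484 to 84978718, minus strand) encodes a Jun protein that pairs with Fos proteins and in many settings restrains c-Jun. Its pattern was different. It read 2.01, 4.39 and 3.51 CPM over the wild-type libraries, against 3.98, 7.03 and 6.15 CPM over the knock-in ones, so that 2 of the 3 knock-in libraries lay above every wild-type library and knock-in replicate 1 lay between them. The log2 fold change was 0.80 ± 0.28, a 1.74-fold difference with a 95% interval of 1.12 to 2.70, with p of 0.018 by edgeR before adjustment and 0.18 after it. It was the only member with an unadjusted p under 0.05, and it did not pass the threshold over all genes. The estimate was 0.62 without knock-in replicate 2 and 0.52 without wild-type replicate 1, where Junb was lowest. With offsets for GC content and exon length it was 0.50, which is over 1.5 times smaller. The longest Junb transcript is 62.6% GC, the highest of the 10 members. Junb also shares 173 exonic bases with Prdx2 on the opposite strand, an abundant antioxidant gene at 283.9 and 304.2 CPM in the 2 groups, and the strand setting of the counting is not given in the sources used here.

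The nuclear receptors Nr4a1 and Nr4a2 need no ligand and are controlled by how much is made. Nr4a1 (ENSMUSG00000023034, chromosome 15, 101254269 to 101274795, plus strand), also known as Nur77, read 12.9, 18.7 and 9.82 CPM over the wild-type libraries, against 10.4, 26.0 and 8.44 CPM over the knock-in ones. Nr4a2 (ENSMUSG00000026826, chromosome 2, 57106830 to 57124003, minus strand), known as Nurr1 and needed for dopamine neurons, read 8.07, 11.8 and 5.40 CPM over the wild-type libraries, against 6.71, 17.2 and 4.99 CPM over the knock-in ones. For both genes the order of the 6 libraries was the same: knock-in replicate 2 was highest, wild-type replicate 2 second and knock-in replicate 3 lowest. The groups overlapped throughout. The log2 fold changes were 0.12 ± 0.37 for Nr4a1 and 0.20 ± 0.41 for Nr4a2, with edgeR adjusted p of 0.90 and 0.84. Without knock-in replicate 2 they were -0.55 and -0.53, and without wild-type replicate 3 they were -0.09 and -0.05.

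Between its lowest and highest library Nr4a1 spanned 3.08-fold and Nr4a2 3.46-fold, but their ratio stayed in a narrow band. Per kilobase of exon, the level of Nr4a2 relative to Nr4a1 was 0.542, 0.548 and 0.475 over the wild-type libraries, against 0.557, 0.574 and 0.511 over the knock-in ones.

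Npas4 (ENSMUSG00000045903, chromosome 19, 4984355 to 4990316, minus strand) encodes a bHLH-PAS transcription factor that is induced by calcium entry in neurons and regulates inhibitory synapses. It was sparse, with 0.963, 0.978 and 0.568 CPM over the wild-type libraries, against 0.893, 2.21 and 0.446 CPM over the knock-in ones, from 16 to 88 reads a library. Knock-in replicate 2 stood 2.26 times above the next library, and knock-in replicate 3 was the lowest of all 6. The log2 fold change was 0.50 ± 0.49 (edgeR, adjusted p = 0.62), and -0.33 without knock-in replicate 2.

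Egr1 (ENSMUSG00000038418, chromosome 18, 34859823 to 34864984, plus strand), a zinc finger factor also called Zif268, did not have its highest value in knock-in replicate 2. It read 27.4, 41.7 and 32.0 CPM over the wild-type libraries, against 23.3, 31.9 and 28.0 CPM over the knock-in ones, with its highest value in wild-type replicate 2. In knock-in replicate 2, where Fos was at its peak, Egr1 lay inside the wild-type range. Replicate 2 was still the highest library of each group, as for Nr4a1. It was the only tested member with a negative log2 fold change, -0.28 ± 0.16 (edgeR adjusted p 0.38), and it was negative with each library left out, from -0.42 to -0.10.

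Egr2 and Egr3, zinc finger factors that bind the same site as Egr1, were too low to test. Egr2 (ENSMUSG00000037868, chromosome 10, 67535475 to 67542188, plus strand) had 1, 4 and 4 reads over the wild-type libraries, against 6, 0 and 1 over the knock-in ones. The 0 reads of knock-in replicate 2 allow a level of up to 0.0753 CPM, taking 3 counts as the limit and counting error alone. Egr3 (ENSMUSG00000033730, chromosome 14, 70077203 to 70082614, plus strand) had 2, 13 and 14 reads over the wild-type libraries, against 8, 5 and 6 over the knock-in ones. Neither had its highest value in knock-in replicate 2, and no difference was detectable at this depth.

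Arc (ENSMUSG00000022602, chromosome 15, 74669083 to 74672570, minus strand) is the one member that is not a transcription factor: it encodes a capsid-like protein of the postsynapse that promotes removal of AMPA receptors. It read 21.4, 28.3 and 29.1 CPM over the wild-type libraries, against 28.3, 33.2 and 31.7 CPM over the knock-in ones, the narrowest range of the 10 at 1.55-fold. Knock-in replicates 2 and 3 lay above every wild-type library and knock-in replicate 1 within their range. The log2 fold change of 0.24 ± 0.12 did not pass the test (edgeR p 0.077, adjusted p 0.33). It was 0.10 without wild-type replicate 1, where Arc was lowest, and 0.05 with offsets for GC content and exon length, the longest transcript of Arc being the second richest in GC among the members.

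**Figure D2:**
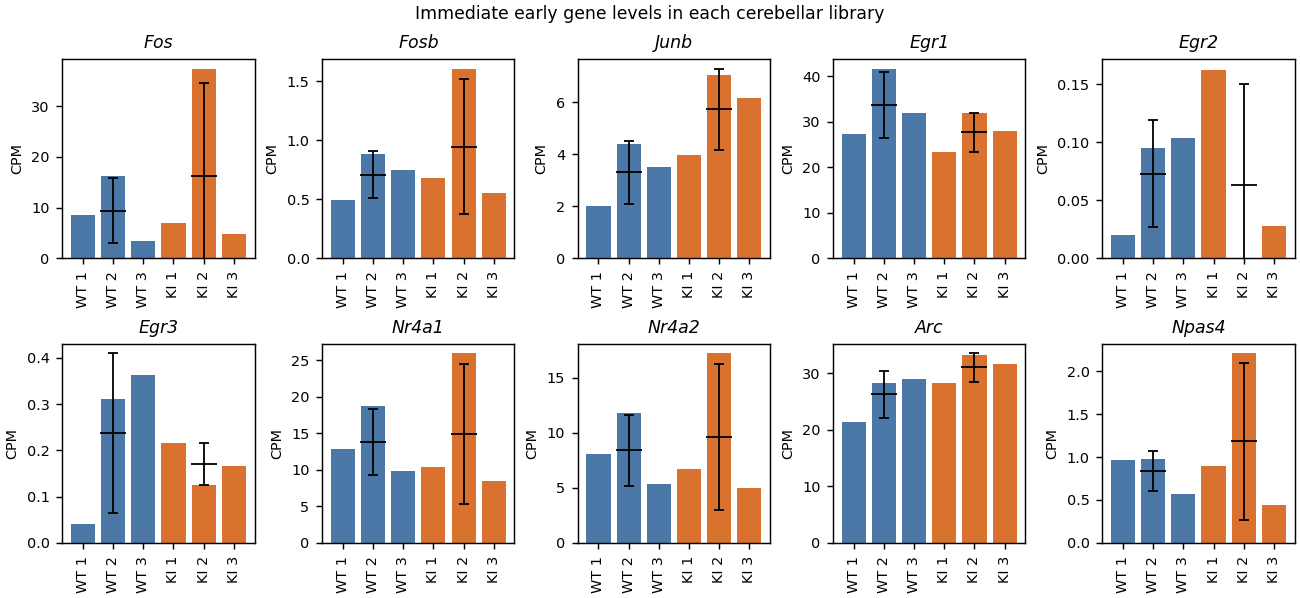
CPM of the 10 immediate early genes in each library (blue, wild type; orange, knock-in), with the mean and SD of each group of 3 in black, cut off at 0; each panel has its own axis from 0. Fos, Fosb, Junb, Nr4a1, Nr4a2, Arc and Npas4 peak in knock-in replicate 2, though narrowly in Junb and Arc, while Egr1 peaks in wild-type replicate 2.

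Of the 8 tested members none passed the threshold of an edgeR adjusted p at or under 0.05, against 318 of the 16699 genes tested (1.90%), and 1 had an unadjusted p under 0.05, against 3017 genes (18.1%). DESeq2, which called 5.59% of all genes tested, and limma-voom, which called 278 genes, also called none of the 8. Junb was called by edgeR with no low-count filter, where 1303 genes were. Junb and Egr1 were called with replicate number as a block, where 2034 genes were. In the main fit the median log2 fold change of the 8 was 0.34, against 0.01 over all genes tested. There 7 of the 8 were positive, against 8572 of the 16699 genes tested. The groups overlapped in every one of the 8 (0 separate, against 23.8% of all genes tested). Without knock-in replicate 2 the median was -0.36, against 0.01 over all genes in that fit, and 6 of the 8 were negative, all but Junb and Arc. Egr2 and Egr3 do not enter these counts.

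Library by library, knock-in replicate 2 exceeded every wild-type library in 7 of the 8 tested members, where 29.6% of all genes tested did so, and lay below all of them in none (29.7%). The exception was Egr1. Knock-in replicate 1 exceeded all wild-type libraries in none of the 8 (31.1% of all genes tested) and lay below all of them in Egr1 alone (28.3%). Knock-in replicate 3 was above all wild-type libraries in Junb and Arc (35.0%) and below all of them in Nr4a1, Nr4a2 and Npas4 (32.8%). Junb and Arc have shorter exon lengths than these 3 genes. Fos, Fosb and Egr1, of 2352, 6243 and 4484 exonic bases, lay within the wild-type range. Junb and Arc are also the members richest in GC, and knock-in replicate 3 had the highest rho with GC content, 0.31. The part of either trend in the values of that library was not tested. The 3 knock-in libraries thus differed among themselves in these genes: Fos ranged 7.93-fold and Npas4 4.96-fold within the knock-in group. The wild-type libraries also differed, by 4.71-fold for Fos, with replicate 2 highest and replicate 3 lowest.

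**Figure D3:**
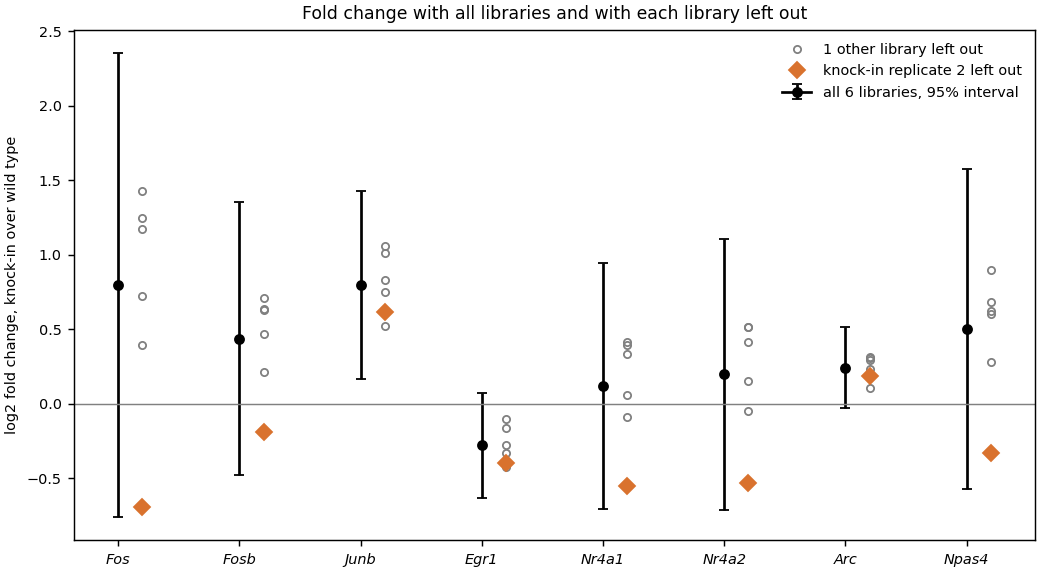
Log2 fold change of knock-in over wild type for the 8 tested members (vertical axis), with all 6 libraries and its 95% interval in black, without knock-in replicate 2 as orange diamonds and without each other library as grey circles. Fos moves from 0.80 to -0.70 and Npas4 from 0.50 to -0.33 without knock-in replicate 2, while Junb stays at 0.62 and Egr1 at -0.40.

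The height of this 1 library can be read against the rest of the table. Among 14175 genes with a mean of at least 1 CPM over all libraries, knock-in replicate 2 was at least 2-fold above each of the other 5 in 2 genes. These were Fos and Npas4. Npas4 was under 1 CPM in each of the other 5 libraries, so it reached that mean only through knock-in replicate 2. The filter thus favoured its place among the 2 genes, and only Fos is free of this. At 1.5-fold there were 13, with the zinc finger gene Klf4, another rapid response gene, among them at 6.45 CPM against 2.66 to 3.91 CPM elsewhere. Each of the other libraries stood 2-fold above the rest in 0 to 14 genes, none of them a member. The spread between libraries of the same group was correspondingly wide. The pooled SD of Fos was 1.37 on the log2 CPM scale, and 0.134% of the 14175 genes had a larger one. For Npas4, Nr4a2 and Nr4a1 the SDs were 0.83, 0.77 and 0.69, and for Fosb and Junb 0.62 and 0.50, against a median of 0.13 over those genes. Egr1 and Arc, at 0.27 and 0.19, were nearer the middle, and 11.3% and 26.4% of genes varied more.

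**Figure D4:**
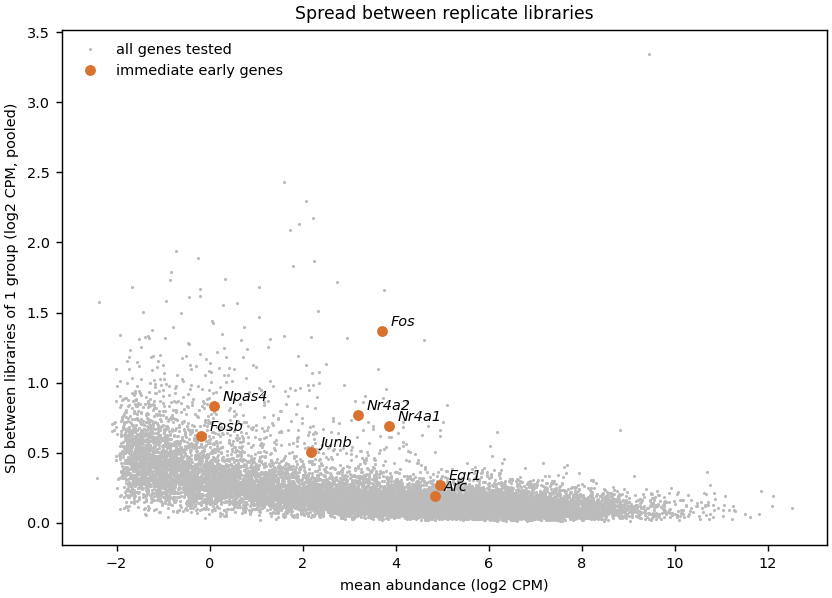
Pooled SD between libraries of 1 group (vertical axis, log2 CPM) against mean abundance (horizontal axis, log2 CPM) for all 16699 genes tested in grey and the 8 tested members in orange. Fos, at 1.37, lies far above most genes of its abundance, and Arc, at 0.19, lies near them.

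The members followed 3 courses across the 6 libraries, given here as correlations of log2 CPM that describe these libraries and share their depth and scaling. Fos correlated with Nr4a2 at r = 0.98, with Nr4a1 at 0.97, with Npas4 at 0.93 and with Fosb at 0.78. Junb and Arc correlated with each other at 0.96 but with Fos at 0.38 and 0.21. Egr1 correlated with none of the others above 0.54. Per kilobase of exon, the ratio of the Fos level to that of Egr1 was 0.601, 0.740 and 0.205 over the wild-type libraries, against 0.570, 2.23 and 0.320 over the knock-in ones. Junb and Arc were both lowest in wild-type replicate 1, the library low in GC-rich genes, and so was Fosb, which correlated with each of them at 0.64 and thus lay between the courses. Egr1 and Nr4a1, at 57.3% and 57.0% GC against 56.0% for Fosb, were lowest in knock-in replicates 1 and 3. The part of GC content in these courses was not tested. The mean log2 CPM of 10 stress and heat shock genes was 5.74 in knock-in replicate 2, the highest, and between 5.53 and 5.73 in the other libraries. That library held the highest value of 3 of the 10, against 15.8% of all genes tested. The part of such genes in its immediate early gene levels was not tested. Whether the low choroid plexus level of that library plays a part in its immediate early gene levels was not tested. In a fit that included the mean brainstem marker level, the log2 fold change of Fos was 1.36 ± 0.87 (SE). No member was called in that fit, which called only 2 of all genes tested. Brainstem marker level was higher in each knock-in library than in any wild-type one, so that fit cannot tell it apart from genotype.

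**Figure D5:**
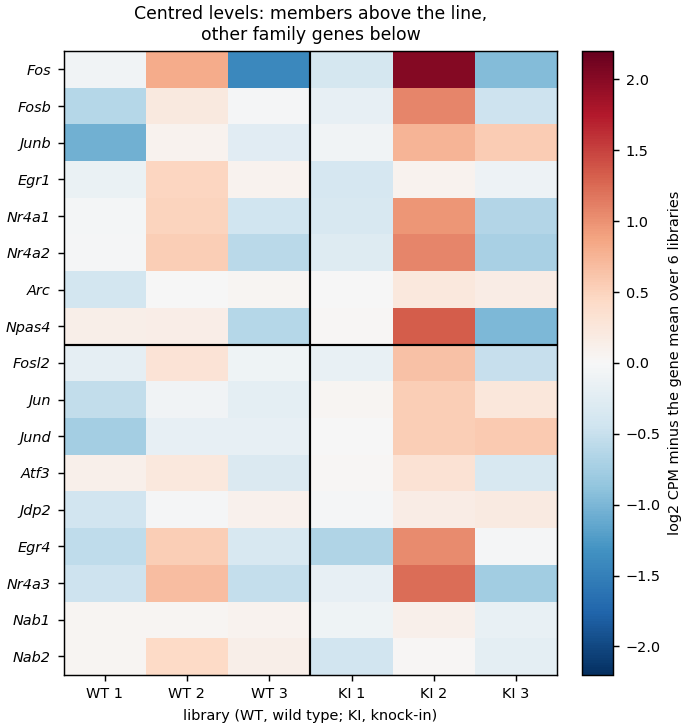
Log2 CPM of each gene minus its mean over the 6 libraries (colour scale), for the 8 tested members above the line and 9 other genes of the AP-1, EGR and NR4A families below it. Fos, Nr4a1, Nr4a2, Npas4 and, below the line, Nr4a3 and Egr4 share their reddest cell in knock-in replicate 2, and Jun and Jund are redder in all 3 knock-in libraries than in any wild-type one.

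Per kilobase of exon, Arc was the most abundant member at 9.37 ± 1.33 CPM per kb (SD over 6 libraries), then Egr1 at 6.85 ± 1.40, Fos at 5.47 ± 5.43, Nr4a1 at 4.09 ± 1.92, Nr4a2 at 2.23 ± 1.16 and Junb at 1.96 ± 0.79. Npas4 at 0.244, Fosb at 0.133, Egr3 at 0.0462 and Egr2 at 0.0201 CPM per kb were far lower. The step from Junb to Npas4 was the only one between neighbours in which the ranges over libraries did not overlap. Fos and Nr4a1 kept their order in 3 of 6 libraries, and Nr4a2 and Junb likewise in 3. In knock-in replicate 2 Fos came first, at 15.9 CPM per kb against 10.9 for Arc, while in wild-type replicate 3 it stood at 1.46, below Junb.

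The other genes of the same families were 12 in number, 9 of them tested, and none was called (median log2 fold change 0.22, 3 with an unadjusted edgeR p under 0.05). The 3 most abundant were Jund, Nab1 and Jun. Jund, which encodes the constitutive Jun protein, read 32.4, 48.1 and 47.8 CPM over the wild-type libraries, against 53.8, 78.9 and 81.2 CPM over the knock-in ones, and Jun, which encodes c-Jun, read 32.8, 45.6 and 41.5 CPM over the wild-type libraries, against 49.5, 69.8 and 57.1 CPM over the knock-in ones. Both had higher values in every knock-in library than in any wild-type one, and both missed the threshold, with log2 fold changes of 0.74 ± 0.18 and 0.56 ± 0.14 and edgeR adjusted p of 0.072 and 0.086. DESeq2 gave adjusted p of 0.0015 and 0.0082, and edgeR also called both with library size scaling (0.027 and 0.028). With GC and length offsets the Jund estimate fell to 0.27, and that of Jun to 0.46. Nab1, a co-repressor of EGR proteins, had a log2 fold change of -0.10 ± 0.09 (edgeR adjusted p 0.59).

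Further family genes were picked out after their values were seen. Nr4a3, the remaining member of its family, read 6.23, 13.7 and 5.97 CPM over the wild-type libraries, against 7.50, 20.1 and 5.04 CPM over the knock-in ones, and Egr4 read 0.963, 2.05 and 1.11 CPM over the wild-type libraries, against 0.893, 2.89 and 1.39 CPM over the knock-in ones. In both, replicate 2 was the highest library of each group, as for Nr4a1. Nab2, the other EGR co-repressor and itself a target of Egr1, read 41.9, 55.1 and 44.6 CPM over the wild-type libraries, against 30.3, 41.2 and 34.8 CPM over the knock-in ones (log2 fold change -0.41 ± 0.13, edgeR adjusted p 0.15).

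Among 40 other rapid response genes, 2 rose and 1 fell (median log2 fold change 0.19), against 0.629% and 1.28% of all genes tested. Dusp5, which encodes a nuclear phosphatase that inactivates ERK, fell; its mean was 100.7 ± 17.5 CPM in wild-type and 51.6 ± 12.2 CPM in knock-in libraries (log2 fold change -0.96 ± 0.17, edgeR adjusted p 0.022). Its libraries read 100.02, 118.6 and 83.6 CPM over the wild-type libraries, against 47.1, 65.4 and 42.3 CPM over the knock-in ones, with no overlap, and replicate 2 was the highest of each group. The call was lost without wild-type replicate 1 or 2 (adjusted p 0.091 and 0.072) and without knock-in replicate 1 or 3 (0.11 and 0.079), at log2 fold changes of -0.98, -0.83, -0.90 and -0.83. Cebpd, a stress-induced C/EBP factor, rose from 0.709 to 1.72 CPM and Maff, a small Maf protein, from 0.477 to 1.44 CPM (edgeR adjusted p 0.040 and 0.042). Neither had its peak confined to 1 library: Cebpd had 1.79, 1.88 and 1.504 CPM in knock-in and Maff had 1.14, 1.13 and 2.06 CPM, all above the wild-type libraries. Both calls were lost when any library other than knock-in replicate 2 was left out, at adjusted p between 0.085 and 0.14 for Cebpd and between 0.077 and 0.17 for Maff. The log2 fold changes with 1 library left out stayed between 1.06 and 1.43 for Cebpd (1.29 with all 6) and between 1.26 and 1.80 for Maff (1.59 with all 6), and limma-voom did not call Maff (0.055). In a fit that included the mean brainstem marker level, none of the 3 was called, where only 2 of all genes tested were. Their log2 fold changes in that fit were -0.88 for Dusp5, 1.29 for Cebpd and 1.72 for Maff. These were about as large as without the marker level, but with wider errors (SE 0.28, 0.46 and 0.63). The marker level was higher in each knock-in library than in any wild-type one, so that fit cannot tell it apart from genotype. Of these 40 genes, 18 had their highest value in knock-in replicate 2, as had 7 of the 8 tested members, against 15.8% of all genes tested.

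Delayed genes, whose transcription follows the first wave or needs longer activity, had 0 of 18 called by edgeR and a median log2 fold change of -0.03. There were 7 of 18 at an unadjusted edgeR p under 0.05, where 18.1% of all genes tested were, and 4 of 18 called by DESeq2, where 5.59% were. Of those 7, 3 were higher in knock-in and the rest lower. Knock-in replicate 2 held the highest value of 3 of these 18, against 15.8% of all genes tested. The most abundant were Nptx1, which encodes a pentraxin that clusters AMPA receptors, at 844.5 and 655.6 CPM (-0.37 ± 0.11, edgeR adjusted p 0.12), the granin Scg2 at 242.6 and 236.3 CPM and the small GTPase gene Rheb at 134.9 and 127.3 CPM. Upstream kinases and transcription factors had 0 of 31 called by edgeR and a median of -0.04. Their 6 of 31 at an unadjusted p under 0.05 and 2 of 31 called by DESeq2 were near those shares of all genes. Ppp3ca, the catalytic subunit of calcineurin, had 674.3 and 599.2 CPM in wild type and knock-in, and Camk2b 653.7 and 604.1 CPM. Camk4, a kinase abundant in granule neurons that phosphorylates CREB, had 656.8 ± 70.4 and 473.7 ± 79.6 CPM, with no overlap and an edgeR adjusted p of 0.085 (0.0079 by DESeq2).

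The genes outside these lists whose course over the 6 libraries was most like the mean course of the tested members were Git2, Tsc22d2, Dnmt1, Pml and Klhl3, with Pearson r of 0.99, 0.99, 0.99, 0.99 and 0.98. They were the highest of 12870 genes compared, 208 of which reached at least 0.9. Their changes were small: Git2, an ARF GTPase-activating protein, read 74.1, 86.3 and 75.8 CPM over the wild-type libraries, against 76.7, 95.7 and 73.1 CPM over the knock-in ones, high in replicate 2 of both groups.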

How the data were processed

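Cerebellar RNA was sequenced from 3 wild-type and 3 knock-in samples as stranded poly(A) libraries, per the labels' protocols. The deposited values are raw read counts per Ensembl gene that the authors made; per the submitters' processing notes the tools were HTSeq 0.6.1, Bowtie2 2.1.0, TopHat2 2.0.14 and bcl2fastq 2.17.1.14, on mm10. No source used here gives the annotation release or the strand setting.

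Symbols and exon lengths came from GENCODE M21, which matched 48349 of 48709 identifiers, and promoter windows from RefSeq (GRCm38.p6). Genes were filtered with filterByExpr (minimum count 10, minimum total 15), TMM-scaled and tested in R 4.3.3 with edgeR 4.0.16 (quasi-likelihood F test, genotype alone, Benjamini-Hochberg over 16699 genes, threshold 0.05). DESeq2 1.42.0 and limma 3.58.1 were alternatives. The SE is the absolute log2 fold change divided by the square root of F, and log2 levels of libraries used a prior count of 2. The procedure was tested on simulated data.

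All 10 members are named. From each fixed list up to 4 called genes were named, or else the 3 most abundant; the genes most alike had the highest r, with a mean of at least 1 CPM. Members and lists were chosen with earlier results of these data known. Pairs of libraries within a group differed by more than sampling noise (chi-square per degree of freedom 14.0 to 30.2).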

Additional observations from a re-analysis of the deposited data

How the results depend on the processing

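The threshold was passed by 318 genes, and by 513 with library size scaling (323 higher and 190 lower, against 105 and 213), 1303 with no low-count filter, 934 with DESeq2, 746 with limma-voom and quality weights, 650 with GC and length offsets, 721 at an adjusted p of 0.1 and 2 with the brainstem marker covariate. With one library left out it was passed by 39 to 858 genes. Library size scaling moved the median of all genes to 0.08. The number of members called, 0, was 1 with no low-count filter (Junb) and 0 with each library left out.

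The labels do not say whether equal replicate numbers pair the samples. Deviations of equal-numbered libraries correlated at 0.0011, 0.17 and 0.32 for numbers 1, 2 and 3. Libraries numbered 2 and 3 correlated best with their own number, and those numbered 1 did not. So few correlations cannot settle whether the samples were paired. With the replicate block 2034 genes passed and 2 members, Egr1 and Junb (log2 fold change -0.27 and 0.82). With the block and the GC and length offsets 1493 genes and the same 2 members passed, at -0.41 and 0.50.

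The median of the members, 0.34, was -0.36 to 0.61 with one library left out, lowest without knock-in replicate 2. It was 0.77 with the brainstem covariate, 0.080 with quality weights and 0.17 with the offsets and the replicate block. The Fos estimate, 0.80, was 0.46 with limma-voom, 0.41 with quality weights and 0.49 with the replicate block. Left-out ranges were -0.70 to 1.43 for Fos, -0.19 to 0.71 for Fosb, -0.55 to 0.41 for Nr4a1, -0.53 to 0.52 for Nr4a2, -0.33 to 0.89 for Npas4 and -0.14 to 0.050 for Scg2. Nr4a1 was also negative with limma-voom (-0.0033), quality weights (-0.10), the offsets (-0.011) and the offsets with the replicate block (-0.14). Scg2 turned positive with library size scaling (0.038) and quality weights (0.026), and Nab1 with the brainstem covariate (0.075). Arc, Junb and Egr1 kept their sign in all 18 alternatives. The causes of these shifts were not tested. Egr2 and Egr3 were fitted only without the filter (-0.18 and -0.45, not called), and Fosb and Npas4 could not be given with a minimum of 1 CPM in 3 samples.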
